A study of Mus musculus with 6 samples.

Results

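The transcripts described here came from 10 genes of imprinted loci, Ipw, Snrpn, Ndn, Magel2, Mkrn3, Ube3a, H19, Meg3, Dlk1 and Peg3, measured in the liver, ovary and uterus of immature mice given fluorene-9-bisphenol (BHPF) or the vehicle. They were chosen by the liver value of Ipw, which had the largest rise with BHPF in liver among the 14513 genes that both liver arrays measured well above background, and the question was whether its chromosomal neighbours or other imprinted genes changed with it. A gene entered where a probe of the array was listed under one of its RefSeq transcripts. That held for 9 of the 10 genes, with 16 of the 55681 probes of the array, out of 20284 genes with a symbol in all. H19 had no probe matched through the RefSeq table and is not analysed here.

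The mice were female CD-1 mice, labelled as 24 days old, which received BHPF at 50 mg per kg per day or peanut oil alone by intragastric gavage for 3 days. All were of the same outbred stock. Each tissue and treatment gave 1 pool of RNA from 3 mice, hybridized to 1 single-colour oligonucleotide array, so that the 6 groups were the 3 tissues with and without BHPF, with 1 array each. No difference between BHPF and control within a tissue could therefore be tested. The 3 control arrays and the 3 BHPF arrays lay in separate rows of 1 slide, and the place on the slide and the treatment cannot be told apart. Levels are given as the log2 of the background-subtracted spot intensity minus the 75th percentile of the array, which sat at an intensity of 3443, 7499.7 and 5335 on the control liver, ovary and uterus arrays and at 3292, 6389 and 4530.2 on the BHPF arrays. Between 61.3% and 74.5% of the probes were well above background on an array. For probes spotted several times, a log2 ratio between arrays had an SD of 0.14, and 0.16 for dim probes, which covers the spots and not the mice.

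The labels of the uterus arrays were not settled. In the authors' table of normalized values, the column headed as control uterus followed the scanner file of the BHPF uterus at 100% of 38450 probes within 0.001 on the log2 scale, and the column headed as BHPF uterus followed that of the control uterus. The uterus values below follow the scanner files, and each uterus change has the opposite sign if the table's headings are right. The array labelled as BHPF uterus also carried transcripts of hepatocytes. All 9 measured hepatocyte genes were at least 2-fold higher on it than on the array labelled as control uterus, with a median log2 ratio of 3.78. Albumin (Alb) had a level of 3.36 against -0.92, and apolipoprotein A-I (Apoa1) differed by 5.49. Their summed intensity was 145570 against 12047, while it was 986028 and 1086926 in BHPF and control liver. On the ovary arrays it was 51705 in control and 52570 with BHPF, with all 9 genes well above background. The part of this RNA in the uterus and ovary values was not tested. The markers listed for the ovary (Inha, the inhibin alpha subunit, was the most abundant) and the uterus (Myh11, smooth-muscle myosin) were well above background on the arrays of their own tissue, 10 of 10 on each. Detection alone did not separate the tissues. Of the ovary markers 7 were also well above background in control uterus and 5 in control liver. Of the uterus markers 8 were so in control ovary and 7 in control liver. By level, 9 of the 10 ovary markers were higher in ovary than in liver and 1, Foxl2, lower.

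Imprinted genes are read from only the maternal or only the paternal chromosome, according to DNA methylation set in the germ line at imprinting centres. The Prader-Willi and Angelman region of mouse chromosome 7 holds the paternally expressed protein-coding genes Snrpn, Ndn, Magel2 and Mkrn3, a long paternally expressed noncoding transcript that hosts many small nucleolar RNAs and of which Ipw is a spliced part, and Ube3a, which is silenced on the paternal chromosome mainly in neurons. The best known sites of expression of these genes are the brain and the embryo. The array gives the sum of both alleles, and fewer cells of a type cannot be told apart from less RNA per cell.

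Between Ube3a and Snrpn the RefSeq annotation places 211 genes, of which 206 are small nucleolar RNA genes and 1, Ipw, had a probe. The start region of Ipw, from 250 bases before to 50 bases after the start of transcription, had fewer CG than those of its neighbours. It is shown with the regions of Ndn and Ube3a because methylation of CpG dinucleotides is the signal that distinguishes imprinted alleles. The sequences run from 5′ to 3′ on the strand of the gene, in the RefSeq build GRCm38.p6, from chr7:59678829-59679128 (minus strand) for Ipw, chr7:62348027-62348326 (plus strand) for Ndn and chr7:59228500-59228799 (plus strand) for Ube3a, with every CG in capitals.
Ipw: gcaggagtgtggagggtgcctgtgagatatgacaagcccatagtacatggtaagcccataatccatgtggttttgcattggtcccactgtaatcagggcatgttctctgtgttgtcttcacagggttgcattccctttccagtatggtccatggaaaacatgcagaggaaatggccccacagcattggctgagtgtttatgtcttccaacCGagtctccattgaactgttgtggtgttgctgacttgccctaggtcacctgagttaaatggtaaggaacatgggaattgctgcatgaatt
Ndn: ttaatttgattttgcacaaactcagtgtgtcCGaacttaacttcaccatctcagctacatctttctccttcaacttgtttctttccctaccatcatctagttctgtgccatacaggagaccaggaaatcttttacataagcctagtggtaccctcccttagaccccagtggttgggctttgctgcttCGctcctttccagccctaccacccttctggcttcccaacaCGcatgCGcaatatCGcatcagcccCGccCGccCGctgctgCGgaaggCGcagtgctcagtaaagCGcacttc
Ube3a: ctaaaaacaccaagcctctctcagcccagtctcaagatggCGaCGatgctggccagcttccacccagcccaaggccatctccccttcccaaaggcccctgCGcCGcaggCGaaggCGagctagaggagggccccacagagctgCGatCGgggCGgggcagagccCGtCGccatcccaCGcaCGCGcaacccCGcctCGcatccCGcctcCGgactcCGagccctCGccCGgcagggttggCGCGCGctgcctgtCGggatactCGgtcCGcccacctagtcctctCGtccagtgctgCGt
The region of Ipw held 1 CG, that of Ndn 11 and that of Ube3a 29. The other regions of the locus held 10 in Magel2, 15 in Mkrn3 and 2 to 7 in the 4 annotated starts of Snrpn. Outside it, Peg3 had 13, Dlk1 9 and the 2 starts of Meg3 had 13 and 1. A CG, which reads the same on both strands, occurred at least once in 94.6% of all 32851 start regions and at least 11 times in 41.4%, with a median of 7. These counts describe the sequence, and methylation was not measured.

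Ipw was measured well above background on 4 of the 6 arrays. Its 1 probe, present in 1 spot, had a level of -5.42 in control liver and -2.29 in BHPF liver. It was at -7.07 and -7.62 in ovary and at -4.31 and -4.08 in uterus, each time control first. The spot intensities behind these levels were 80.2 and 672 in liver, 55.9 and 32.5 in ovary, and 270 and 268 in uterus. The ovary signals were not well above background, and the other 4 were. BHPF liver was thus the highest of the 6 arrays, the uterus arrays came next, control liver was below them, and ovary gave no measured level. The 2 uterus arrays differed by 0.23, beside an SD of 0.16 between spots of dim probes. In liver the difference was 3.13 on the log2 scale, or 8.78-fold. This is the value by which Ipw was chosen and it is given as a description. The next genes in that order were Plcl1 at 3.01, Tespa1 at 2.97 and Lynx1 at 2.88. Counting genes that were well above background on only 1 of the liver arrays, 11 genes had a larger difference or bound.

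The size of the liver value depended on how the background was removed. The median pixel signal of the Ipw spot was 161 on the control and 697 on the BHPF liver array, with local backgrounds of 25 and 21. The deposited intensity was 80.8 below the spot signal on the control array and 24.5 below it on the BHPF array. Over 12034 spots of probes well above background on no array, the median of this gap was 64.7 on the control and 87.5 on the BHPF liver array. The deposited intensity was also detrended, so the gap is not background alone. Without any background subtraction the difference was 2.17, an alternative chosen after the values were seen. With the normexp correction it was 2.09. That correction added an offset of 50, which by itself makes differences of dim spots smaller. It was 2.82 when arrays were scaled to their 50th percentile and 2.73 after quantile normalization. BHPF liver remained the higher array under each of these.

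Dim probes that both liver arrays measured well above background were more often higher than lower with BHPF. Of 838 such probes with a mean level under -5 over the 6 arrays, where Ipw lay at -5.13, 17.8% were higher by 2-fold or more and 1.91% lower, with a median ratio of 0.42. Of 17454 such probes with a mean level of -1 or more, 0.819% were higher and 0.544% lower. These shares were computed after the values were seen and take in no bound. Within 10 rows and columns of the Ipw spot lay 95 spots of probes that were never well above background in ovary or uterus. Their median intensity was 15.4 on the control and 30.9 on the BHPF liver array, and that of all 13209 such spots was 16.9 and 27.9. Of the 95 spots, 71.6% were at least 2-fold higher on the BHPF liver array, beside 26.9% of all such spots. On that array their 90th percentile was 83.2 and 6 of them were brighter than Ipw. Their highest log2 ratio was 2.74, below that of Ipw. The part of the surrounding signal in the Ipw value was not tested.

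**Figure D1:**
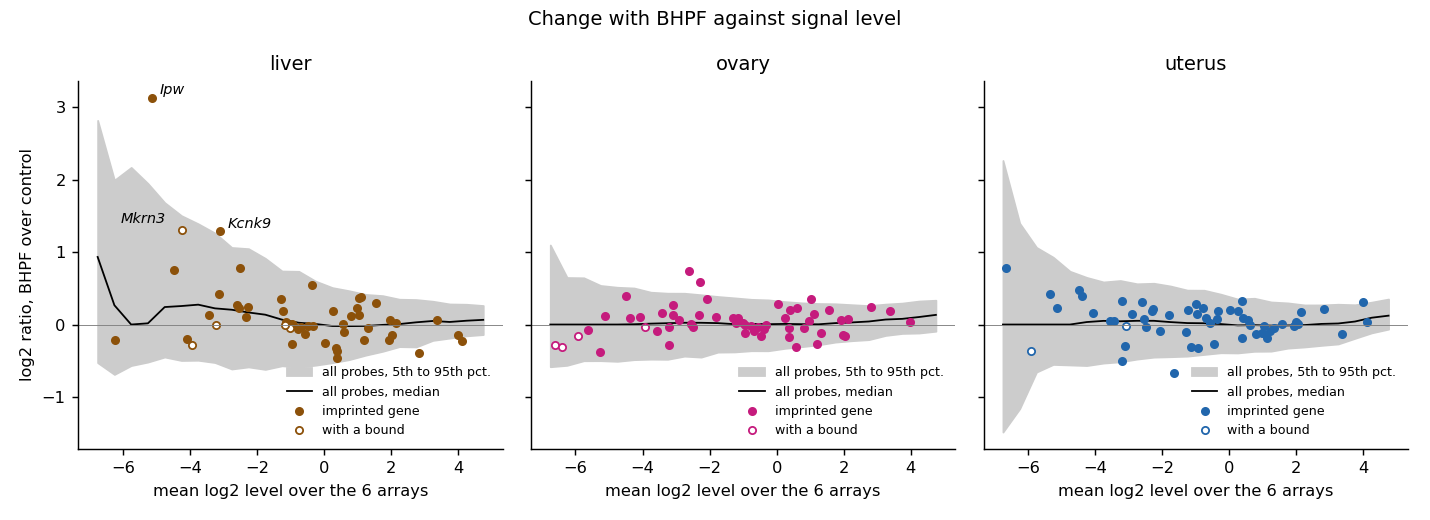
Log2 ratio of BHPF over control against the mean log2 level over the 6 arrays, by tissue. Points are imprinted genes, open where a probe was given as a bound, and the grey band spans the 5th to 95th percentile of all evaluated probes with their median as a line. In liver the band, which takes in bounds, widens upwards at low levels, and Ipw stands at 3.13, the value by which it was chosen.

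By Pearson r with Ipw over the 6 arrays, the first of 14479 further genes measured on both arrays of liver were Otol1, an inner-ear collagen, with 0.999, Lao1, an L-amino acid oxidase, with 0.994, Rnase10 with 0.993, the potassium channel gene Kcnc4 with 0.991 and Sry, the testis-determining gene of the Y chromosome, with 0.99. The 6 points included the BHPF liver value by which Ipw was chosen and 2 ovary readings of Ipw that were not well above background, so this order describes the arrays and does not show which genes followed Ipw. The liver log2 ratios of the 5 genes were 1.15, 1.46, 1.04, 0.50 and 0.61. The level of the Sry probe in these female mice was -2.76 in control liver and -2.15 in BHPF liver. Among the members, r was -0.16 for Snrpn, -0.52 for Ndn, 0.57 for Magel2, -0.60 for Ube3a, -0.57 for Meg3 and -0.67 for Peg3, and Mkrn3 and Dlk1 were not measured on both liver arrays.

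Of the imprinted genes of the locus, 7 were evaluated in liver, with a median log2 ratio of 0.36, and 6 of them were above 0. Ipw and Mkrn3 were past 2-fold, or 28.6%, of which Ipw was the gene chosen and Mkrn3 a bound. Without Ipw the median was 0.29 with 5 of 6 above 0, and with scaling to the 50th percentile it was -0.02 with 3 of 6 above 0. After quantile normalization it was 0.02 with 3 of 6. In ovary and uterus none was past 2-fold, with medians of 0.06 and 0.08. The 22 genes with a probe taken around Ipw ran from Herc2 to Apba2, with 14 of them on the side of Snrpn. Of these genes, 15 were evaluated in liver, 18 in ovary and 16 in uterus, with median log2 ratios of 0.16, 0.02 and 0.04. In liver 2 of the 15 were past 2-fold, Mkrn3 upwards and Trpm1 downwards, and none was in ovary or uterus. Over all genes with a symbol, 3.20% of 15530 had a ratio of 2-fold or more upwards in BHPF liver and 1.54% downwards. With scaling to the 50th percentile these shares were 1.65% and 3.54%, since that scaling moved the median of all genes in liver to -0.30.

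**Figure D2:**
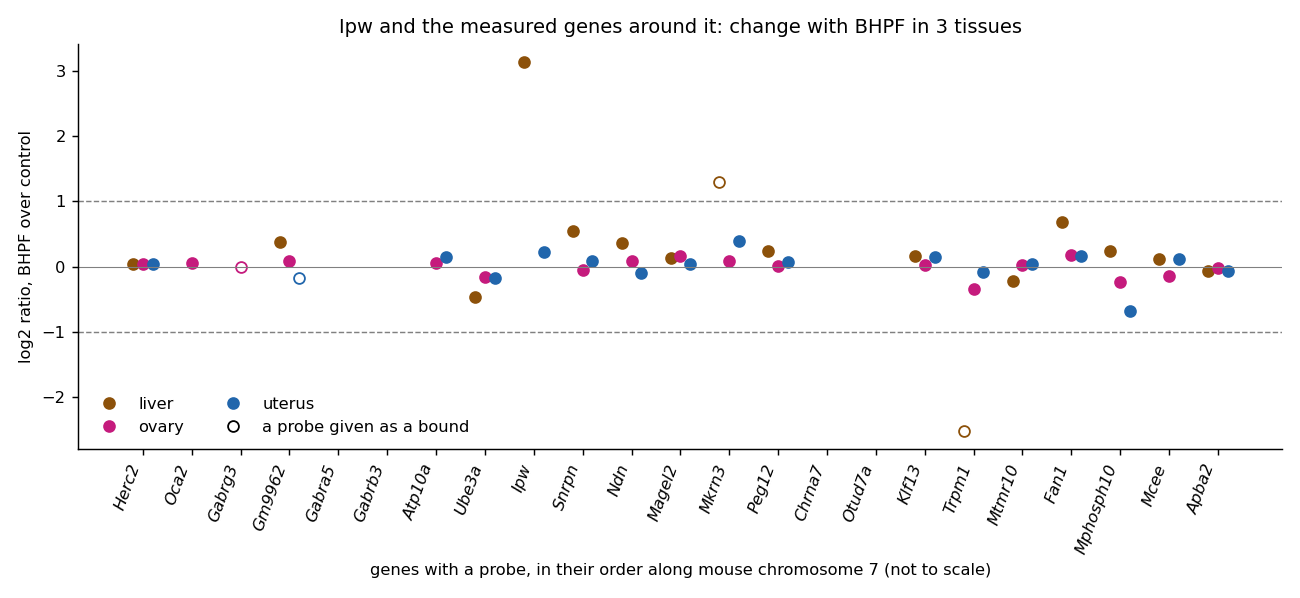
Log2 ratio of BHPF over control (vertical axis) for Ipw and the measured genes around it in chromosomal order (horizontal axis), in liver, ovary and uterus. Open circles hold a bound and dashed lines mark 2-fold. Ipw stands at 3.13 in liver, Mkrn3 at 1.30 and Trpm1 at -2.52, and the remaining points lie within the lines.

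Snrpn, which encodes a core protein of spliceosomal ribonucleoproteins and carries the imprinting centre at its start, had 3 probes. The brightest had levels of -0.16 and 0.32 in control and BHPF liver, 0.08 and 0.03 in ovary, and -0.85 and -0.62 in uterus. The next had levels of -0.70 and -0.09 in liver, -0.23 and -0.29 in ovary, and -0.92 and -0.98 in uterus. The remaining probe was not well above background on any array. The mean log2 ratio of the measured probes was 0.54 in liver, -0.06 in ovary and 0.08 in uterus. In liver both probes were higher with BHPF, by less than 2-fold.

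Ndn encodes necdin, a growth suppressor of postmitotic neurons. Its probe had levels of -3.61 and -3.25 in control and BHPF liver, -0.10 and -0.02 in ovary, and -0.32 and -0.42 in uterus. The change with BHPF was 0.36 in liver, 0.09 in ovary and -0.10 in uterus, and both liver arrays lay below all 4 others. Magel2, a MAGE-family regulator of protein trafficking on endosomes, had levels of -3.60 and -3.47 in liver, -3.76 and -3.60 in ovary, and -3.09 and -3.04 in uterus. Its log2 ratios with BHPF were 0.13, 0.16 and 0.05. The liver ratio was -0.19 with scaling to the 50th percentile, under which the median of all genes was -0.30, and -0.19 after quantile normalization.

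Mkrn3, a ubiquitin ligase whose loss is known from precocious puberty, was not well above background in control liver. Its first probe had levels of -6.29 and -4.32 in control and BHPF liver, of which only the latter was well above background, -3.69 and -3.72 in ovary, and -3.87 and -3.55 in uterus. This gave a log2 bound of 1.30 in liver, or at least 2.47-fold higher with BHPF. The second probe had levels of -6.16 and -5.62 in liver, neither well above background, -4.07 and -3.87 in ovary, and -3.98 and -3.51 in uterus. The liver value thus rested on 1 probe, at an intensity of 165 on the BHPF array. Within 10 rows and columns of its spot, the 76 spots of probes never well above background in ovary or uterus had a median intensity of 15.9 on the control and 46.3 on the BHPF liver array, where their 90th percentile was 157 and 6 of them were brighter than Mkrn3. The bound was under 2-fold with scaling to the 50th percentile (0.99) and after quantile normalization (0.85). The part of the surrounding signal was not tested.

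Ube3a, the ubiquitin ligase lost in Angelman syndrome, went the other way. Its probe had levels of 0.75 and 0.29 in control and BHPF liver, 0.68 and 0.51 in ovary, and 0.11 and -0.07 in uterus. The log2 ratio was -0.46 in liver, -0.17 in ovary and -0.18 in uterus, and the liver value was the lowest of the 52 imprinted genes evaluated there. Peg12, a further paternally expressed gene of the locus, had ratios of 0.23, 0.01 and 0.08.

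The genes flanking the locus that are not counted as imprinted gave 9 evaluated genes in liver with a median of -0.07, 1 of them lower and none higher. That gene was Trpm1, a cation channel of melanocytes and retinal bipolar cells, with a mean log2 ratio of -2.52 over 3 probes, of which 2 gave bounds. The value came from 1 probe, with a level of 2.40 in control liver and -5.12 in BHPF liver, the latter not well above background (bound -7.31), against -4.28 to -4.87 on the ovary and uterus arrays. Its other probes gave -0.03 and a bound of -0.24. The 3 flanking genes with the brightest probe over the 6 arrays were Herc2, a large ubiquitin ligase, at 0.05 in liver, Cyfip1, a regulator of actin assembly, at -0.28 and Nipa2, a magnesium transporter, at -0.07. In ovary and uterus none of the 11 and 9 evaluated genes was past 2-fold.

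**Figure D3:**
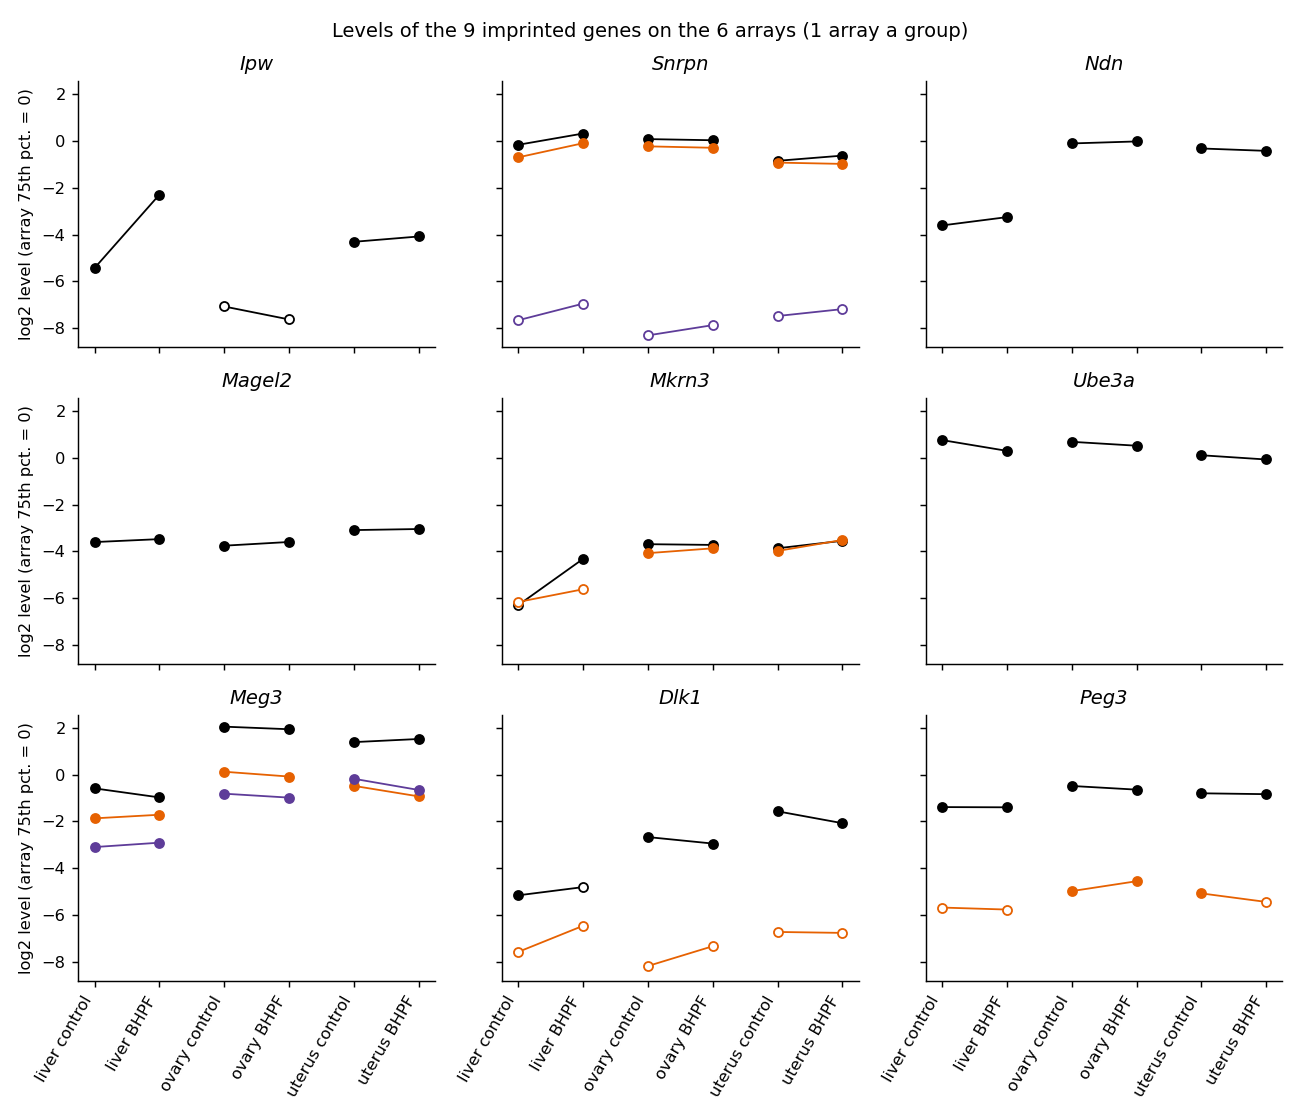
Log2 levels of the 9 measured members on the 6 arrays, with control and BHPF of a tissue joined by a line. Each colour is a probe, and open circles were not well above background. Ipw changes in liver from -5.42 to -2.29, and the upper probes of Ndn, Meg3, Dlk1 and Peg3 are lower in liver than in ovary and uterus.

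The members outside chromosome 7's Prader-Willi region were not past 2-fold in any tissue. Meg3, a maternally expressed noncoding RNA of chromosome 12 and therefore of the same RNA class as Ipw, had 3 probes. The brightest had levels of -0.59 and -0.98 in control and BHPF liver, 2.04 and 1.93 in ovary, and 1.38 and 1.52 in uterus. The 3 liver ratios were -0.39, 0.15 and 0.19, with a mean of -0.02. Its mean ratio was -0.16 in ovary and -0.26 in uterus. Dlk1, a paternally expressed membrane protein of the same domain that restrains adipocyte formation, had levels of -5.16 and -4.81 in liver for the brighter of 2 probes, of which only the control was well above background. The levels were -2.67 and -2.95 in ovary and -1.57 and -2.08 in uterus, with ratios of -0.28 and -0.51. The other probe was not well above background on any array. Peg3, a paternally expressed zinc-finger protein encoded on chromosome 7 outside the Prader-Willi region, had levels of -1.39 and -1.40 in liver, -0.49 and -0.65 in ovary, and -0.80 and -0.84 in uterus for its brighter probe. That probe changed by -0.01 in liver. The dimmer one was below background in liver and read -4.98 and -4.56 in ovary and -5.08 and -5.44 in uterus.

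The wider list held 70 imprinted genes, 64 of them with a probe. In liver 52 were evaluated, of which 3 passed 2-fold upwards and none downwards. That is 5.77% of the evaluated genes beside a background of 3.20% of all genes, and it includes Ipw, by which the list was chosen. Mkrn3 and Kcnk9 had mean levels between -5 and -3. There 10.6% of the 6476 probes measured on both liver arrays, as Kcnk9 was, were at least 2-fold higher. With bounds counted, as for Mkrn3, it was 11.9% of 8056 probes. The median was 0.01, against 0.00 for all genes. The third gene was Kcnk9, a maternally expressed potassium channel, with levels of -3.13 and -1.83 in control and BHPF liver, -3.78 and -3.50 in ovary, and -3.02 and -3.31 in uterus. Its 1 probe was 1.29 higher in BHPF liver, or 2.45-fold. With scaling to the 50th percentile only Ipw remained past 2-fold.

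In ovary 57 genes of the list were evaluated, with a median of 0.02 and none past 2-fold, where 0.474% of all 16863 genes were higher and 0.617% lower. The extremes were Ins2 at 0.75 and Zim3 at -0.38. In uterus 56 were evaluated, with a median of 0.06 and none past 2-fold, where 2.27% of all 16161 genes were higher and 0.823% lower. The extremes were Rasgrf1 at 0.78 and Tnfrsf23 at -0.66.

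By domain, the 14 evaluated genes of the H19/Igf2 and Kcnq1ot1 domains had a median of -0.06 in liver, between -0.36 for Cdkn1c and 0.78 for Ascl2, named like the other extremes after the values were seen. By the level of the brightest probe over all 6 arrays, the basis for every gene called bright here, their first 3 genes were Cd81, a tetraspanin, at 0.07, Osbpl5, an oxysterol-binding protein, at 0.29 and the antisense noncoding RNA Kcnq1ot1 at -0.10. Igf2 was below background on both liver arrays. In the Dlk1-Dio3 domain 5 genes had a median of 0.19, with the microRNA host Mirg at 0.19, the deiodinase Dio3 at 0.24 and Rtl1 at 0.75. In the Peg3 domain only Peg3 and its antisense transcript Peg3os were evaluated in liver, at -0.01 and 0.01. Of the 24 other imprinted genes, with a median of -0.01, the brightest over the 6 arrays without a 2-fold change were Gnas, the stimulatory G-protein alpha subunit, at -0.23, decorin (Dcn) at -0.14 and Blcap at -0.40.

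**Figure D4:**
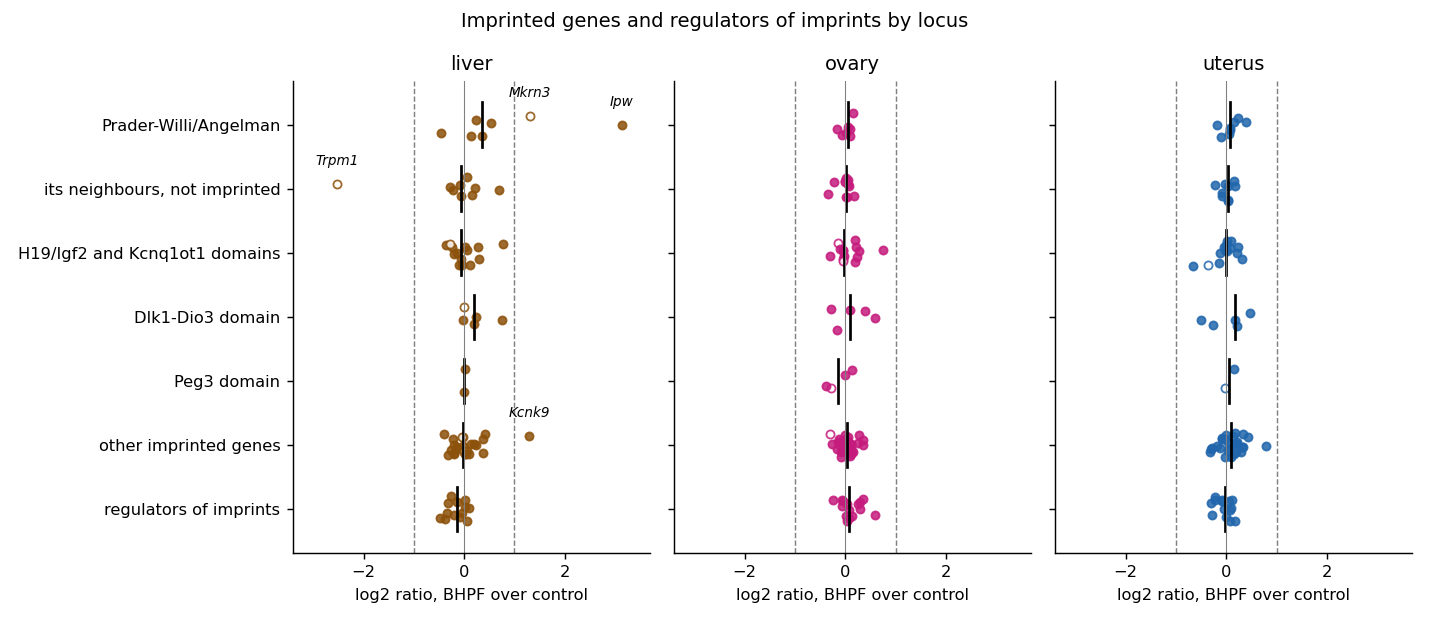
Log2 ratio of BHPF over control for each gene of the imprinted domains, the non-imprinted neighbours and the regulators of imprints, by tissue. Each point is a gene, open where a probe was given as a bound, black bars are medians and dashed lines mark 2-fold. Points outside the lines are Ipw, Mkrn3, Kcnk9 and Trpm1 in liver, and there are none in ovary and uterus.

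The genes that set and keep imprints were not past 2-fold in any tissue. Of 16 regulators, 13 were evaluated in liver with a median of -0.14, 15 in ovary with 0.07 and 14 in uterus with -0.02. In liver they ranged from -0.49 for the de novo methyltransferase Dnmt3b to 0.10 for Uhrf1, both named for their rank after the values were seen, of which Uhrf1 brings the maintenance methyltransferase to replicated DNA, and 9 of the 13 were below 0. Trim28, the corepressor bound at imprinting centres, gave 0.02, Ehmt2, a histone H3 lysine methyltransferase, -0.32 and the insulator protein Ctcf -0.26.

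Markers of other cells were read beside the liver values. No gene of the hepatocyte (9 evaluated), uterus (7), neuron and neuroendocrine (7), fibroblast and stellate cell (10), fetal liver and hepatoblast (8) or adipocyte (4) lists was past 2-fold in liver. The median was 0.04 for hepatocytes and 0.03 for neurons, the cells in which Ipw and its neighbours are best known. The summed intensity of the neuronal markers was 130587 in control and 139684 in BHPF liver, of which Snap25, a synaptic vesicle fusion protein, gave 118435 and 126859, and Chga, Elavl3 and Scg2 did not rise clearly above background on either. The fetal liver list had a median of -0.26, with its most abundant gene Spp1, osteopontin, at -0.37. Of 6 ovary markers evaluated in liver, Zp3, an egg-coat glycoprotein, was at least 3.15-fold higher, at a level of -3.97 in BHPF liver. The list had a median of -0.03, with Foxl2 at 0.15, Nr5a1 at 0.17 and bounds of -0.62 for the oocyte gene Gdf9, -0.31 for Inha and -0.21 for Star, and Inha, Amh and Fshr were not well above background on that array. Outside liver, Adipoq, the adipocyte hormone adiponectin, was 1.35 higher on the BHPF ovary array and lower on the array labelled BHPF uterus (-3.31), as was Fabp4, a fatty acid carrier of adipocytes (-1.46). Spp1 was 1.36 higher and the neuronal RNA-binding gene Elavl3 at least 3.06-fold higher on that array. These genes were named because they passed 2-fold. The adipocyte list had a median of 0.48 in ovary (5 evaluated) and -1.05 in uterus (4 evaluated). In uterus the median was 0.02 for the 8 neuronal genes evaluated, with Stmn2 at -0.51, and 0.23 for the 7 fetal liver genes. No marker of the fibroblast list was past 2-fold in any tissue.

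The imprinted genes also differed between tissues. With 2 arrays per tissue, the tissues were compared by limma with treatment as a further term. Of 59 imprinted genes tested, 40 passed an adjusted p of 0.05 between ovary and liver, 26 higher and 14 lower in ovary, or 67.8% beside 71.7% of all 16951 genes tested (34.3% higher, 37.5% lower). Between uterus and liver 39 passed, 28 higher and 11 lower in uterus, or 66.1% beside 67.4% (32.3% higher, 35.1% lower). Between ovary and uterus 27 passed, 14 higher and 13 lower in ovary, or 45.8% beside 41.6% (19.5% higher, 22.1% lower). In total, imprinted genes were thus called about as often as genes in general. Against liver, more of them were called higher than lower, while more of all genes were called lower than higher. Their median difference from liver was 0.26 in ovary and 0.47 in uterus, beside -0.07 and -0.04 for all genes. Whether the list differed from all genes in direction was not tested. The counts include Ipw, called lower in ovary than in liver and in uterus, for which no test is read here because its liver value chose it and sets its spread. Its ovary mean was at least 3.59-fold below its uterus mean, computed from the lowest level well above background on each ovary array. Between ovary and uterus, leaving out any 1 of the 4 arrays of these tissues brought the count to 14 to 17.

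Of the members, Ndn, Meg3 and Dlk1 were lower in liver than in the reproductive tissues. Ndn was higher in ovary than in liver by 3.37 ± 0.17 (log2, SE, limma adjusted p = 3.72e-05) and in uterus by 3.06 ± 0.17 (adjusted p = 5.31e-05). Meg3 was higher by 2.23 ± 0.13 in ovary (adjusted p = 6.5e-05) and by 1.97 ± 0.13 in uterus (adjusted p = 0.000104). Dlk1 was higher by 2.17 ± 0.26 in ovary (adjusted p = 0.000851) and by 3.16 ± 0.26 in uterus (adjusted p = 0.000222), with 1 of the 2 liver arrays well above background. The BHPF liver reading of Dlk1 (-4.81) already lay above the lowest level well above background of its array (-4.91). Raising it as for Mkrn3 below thus left the differences at 2.17 and 3.16 and was no further check. On all 4 arrays of ovary and uterus Ndn, Meg3 and Dlk1 each lay above both liver arrays. Mkrn3 was higher by 1.76 ± 0.35 in ovary (adjusted p = 0.00615) and by 1.87 ± 0.35 in uterus (adjusted p = 0.00517), the former not past the threshold without the control ovary (1.39, adjusted p = 0.0633). Of its 2 probes, 1 was well above background in liver, and only on the BHPF array. With the other liver readings raised to the lowest level well above background of their array, a bound added after the values were seen, the differences were at least 1.28 and 1.39. Peg3 was higher in ovary by 0.89 ± 0.20 (adjusted p = 0.00896), which was lost without either ovary array. Its dimmer probe was below background in liver, the brighter one alone differed by 0.83, and with the liver readings raised as for Mkrn3 the gene differed by at least 0.66.

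Snrpn and Ube3a were lowest in uterus. Snrpn was lower in uterus than in liver by 0.68 ± 0.18 (log2 difference -0.68, adjusted p = 0.0183) and Ube3a by 0.51 ± 0.13 (-0.51, adjusted p = 0.0166). Both were higher in ovary than in uterus, by 0.74 (adjusted p = 0.0251) and 0.58 (adjusted p = 0.0192), and ovary and liver did not differ past the threshold (differences of 0.06 ± 0.18 and 0.07 ± 0.13). With the 75th percentile taken over probes detected on all arrays, neither passed between uterus and liver (-0.32 and -0.14). Snrpn lost that call without either BHPF array of these tissues and Ube3a without either control array. Their calls between ovary and uterus, and the higher Dlk1 level in uterus than in ovary (-0.98 ± 0.26, adjusted p = 0.0352), were lost without any 1 of the 4 ovary and uterus arrays. Magel2 passed the threshold in no pair of tissues (adjusted p from 0.0604 to 0.56).

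**Figure D5:**
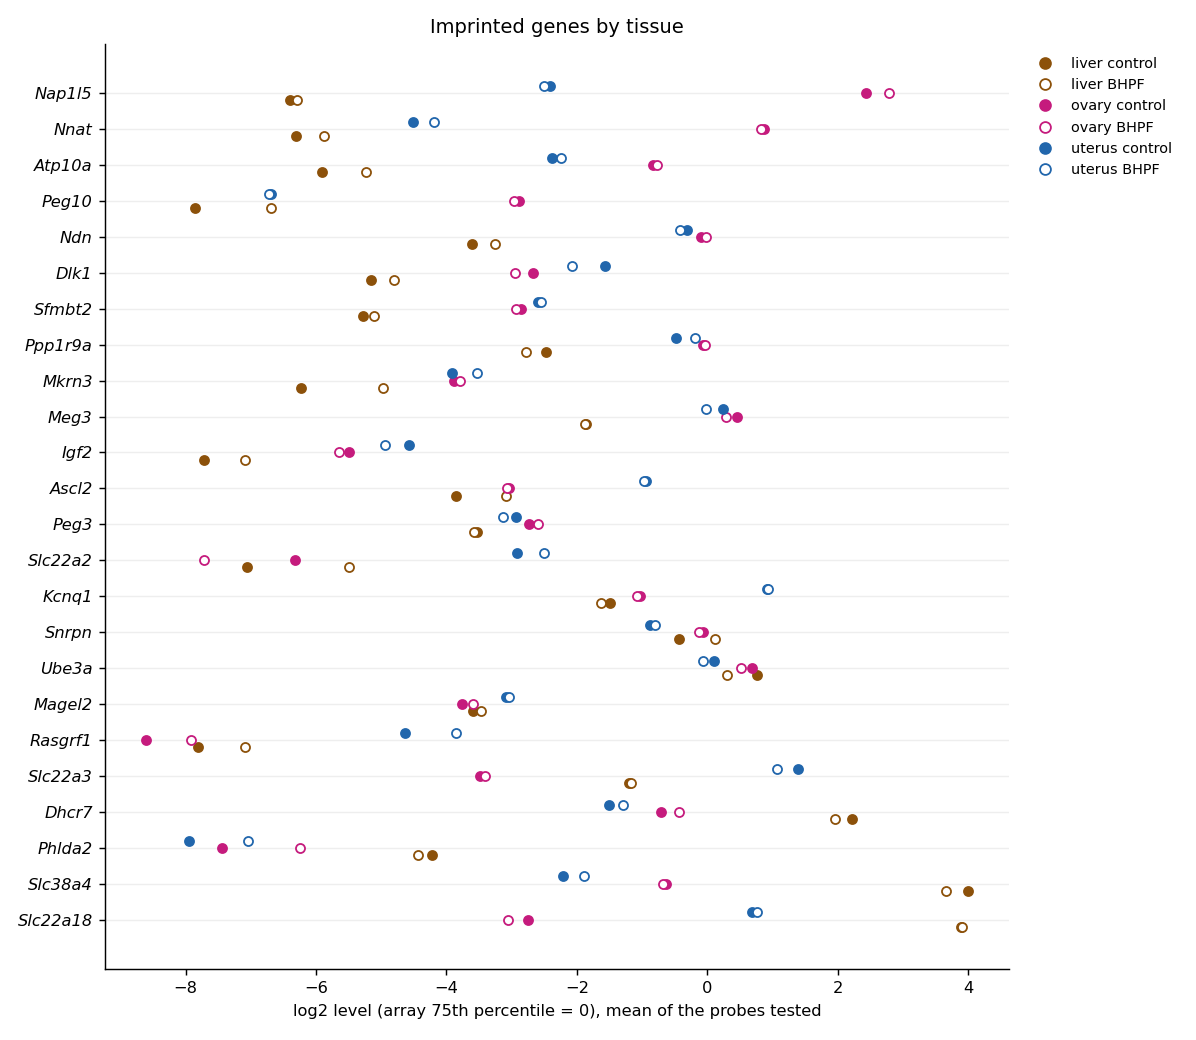
Log2 level on each array for 24 imprinted genes, the members other than Ipw and every gene of the list called with a difference of 2 or more between any pair of tissues. Filled circles are control and open circles BHPF, coloured by tissue, and levels are compared along a row only. Nap1l5 spans from -6.40 in control liver to 2.79 in BHPF ovary, and Slc22a18 from 3.90 in BHPF liver to -3.06 in BHPF ovary.

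The widest tissue differences lay elsewhere in the list. The genes given here are examples and not a full ranking, and they were named after their values were seen. Nap1l5, a nucleosome assembly protein family gene, was 8.95 ± 0.18 higher in ovary than in liver in the fit (adjusted p = 1.19e-05). Only 1 of its 2 probes was well above background in liver, and only on the control array, and with the other liver readings raised in the same way the difference was at least 7.74. Neuronatin (Nnat), a membrane proteolipid, was at least 67.7-fold higher in ovary than in liver (adjusted p = 1.35e-05). Atp10a, a phospholipid flippase gene beside Ube3a, was higher in ovary by at least 4.46 on the log2 scale (adjusted p = 3.23e-05) and at least 7.72-fold higher in uterus (adjusted p = 0.000116) than in liver. In the opposite direction, the transporters Slc22a18 and Slc38a4 were highest in liver, with log2 differences of ovary minus liver of -6.80 ± 0.14 (adjusted p = 1.19e-05) and -4.49 ± 0.18 (adjusted p = 2.01e-05). Slc38a4 was at -2.22 on the array labelled control uterus and -1.89 on that with hepatocyte transcripts. Among the regulators, 10 of 15 were higher in ovary than in liver and none lower, where 34.3% of all genes were higher, and 8 of 15 were higher in uterus than in liver and none lower, where 32.3% of all genes were higher. Between ovary and uterus 6 of the 15 were higher in ovary and 1 lower, beside 19.5% and 22.1% of all genes.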

How the data were processed

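RNA of 6 pools (liver, ovary and uterus of control and BHPF mice, 3 mice a pool) was labelled with 1 dye and hybridized to Agilent mouse gene expression arrays by the authors, on 1 slide scanned once. The deposited scanner files give spot intensities after background subtraction and detrending by Feature Extraction (11.5.1.1 in the file headers, 9.1 in the submitters' processing notes, probe design build mm9). A second deposited table, in log2 values that the authors shifted by a percentile of each array, served as an alternative.

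From the intensities, outlier spots were dropped, spots of a probe averaged, log2 taken and the array's 75th percentile subtracted. Symbols came from matching transcript accessions to the RefSeq table of GRCm38.p6 (26762 of 55681 probes, 48.1%); its order of genes was used, and not its positions, apart from those of the start regions shown. A gene was the mean of its probes well above background on at least 1 array of the tissue. Where only 1 array passed, the ratio was taken against the higher of the probe's own level and the lowest level well above background on the other array and is a bound. A change of 2-fold was counted, with no test, since each group had 1 array. Tissues were compared with limma 3.58.1 in R 4.3.3 (trend, Benjamini-Hochberg adjustment over 36079 genes and unnamed probes well above background on at least 2 of 6 arrays), with treatment as a term, whose residual is the treatment difference between tissues. Features were gene means where probes had been planned, and the probe fit was added as an alternative. Nothing says that pools were repeated, so p-values measure the spread between these arrays only, and 6 arrays give limited precision. Scripts were tested on simulated data.

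The members and lists were chosen with earlier results of these data known. Lists were imprinted genes by domain, regulators of imprints, and markers of hepatocytes, ovary, uterus, neurons, fibroblasts, fetal liver and adipocytes. Named genes were the members, list genes past 2-fold with BHPF, otherwise the 3 brightest of each list of imprinted genes and regulators, and the 5 genes most like Ipw over the arrays. Alternatives covered background correction, scaling, the authors' table, exchanged uterus arrays, the filter and bound for dim probes, the choice of probe, outlier spots and each array left out. H19 and 5 further imprinted genes of the list had no matched probe and are not analysed here.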

Additional observations from a re-analysis of the deposited data

How the results depend on the processing

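Ipw in liver was higher with BHPF under every alternative, at 2.09 with normexp correction and an offset of 50, 2.82 with the 50th percentile and 2.73 with quantile normalization. Without background subtraction, an alternative added after the data were seen, Ipw in liver was at 2.17. In uterus it was 0.23, -0.23 with the arrays exchanged and -0.23 in the authors' table. The 3 imprinted genes past 2-fold in liver became 1 with the 50th percentile and 6 without a filter on dim probes (64 genes evaluated), and the 0 in ovary became 2 without that filter. The median ratio of all genes in liver moved to -0.30 with the 50th percentile. Among the other members, no change with BHPF other than that of Mkrn3 in liver (0.85 to 1.98) reached 2-fold under any alternative.

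Between tissues, leaving out each array gave 29 to 41 calls for liver against ovary, 32 to 39 for liver against uterus and 14 to 31 for ovary against uterus, with 15, 17, 14 and 15 without the control ovary, control uterus, BHPF ovary and BHPF uterus. The authors' table gave 16 calls of 49 tested for ovary against uterus. The cause of these changes was not tested, apart from fewer arrays and fewer genes. Every called gene had the same sign in the control arrays alone. Those arrays were part of the fit that made the calls, so the equal signs are no independent check. Scaling moved the difference between tissues of all features by a median of up to 0.38 (75th percentile over probes detected on all arrays) and -0.46 (50th percentile, uterus minus liver), and the calls of Snrpn, Ube3a, Magel2 and Peg3 against liver depended on it. No fit with a replicate block was made, since the labels carry no replicate numbers, and the treatment term already set the tissues against each other within a treatment. Dim signals limit what can be said of Ipw, Mkrn3 and Dlk1 in liver.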
